A study of Rattus norvegicus with 27 samples.

Results

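Solitary CpG sites are CpG positions of the rat genome that reached a read minimum in a short stretch where at most 1 other did. A site was called common when it held 10 or more reads (methylated plus unmethylated) in all 12 libraries of the second count table, on an autosome. The genome was divided into 500 bp bins, and sites in bins with 1 or 2 common sites were taken. Other common sites could lie just across a bin edge, and the median distance to the nearest was 57 bp. That gave 102882 solitary sites, 8.65% of the 1188788 autosomal common sites. Of these, 29516 were alone in their bin and 73366 formed the 2 sites of 36683 bins. The first count table held 10 or more reads in all 15 of its libraries at 21103 of them (20.5%), which were 4.41% of its 478158 autosomal common sites. Read number and position alone defined the solitary sites, not methylation.

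DNA was taken from the renal outer medulla, a kidney zone of tubules and vessels, of SS rats, a model of salt-induced hypertension, and each library came from 1 rat. In the first table, MCW_LS rats (strain MCW SS, n = 3) ate a purified 0.4% NaCl diet until 8 weeks of age, and CRL_LS rats (strain CRL SS, n = 4) a non-purified 0.75% NaCl diet until 8 weeks. MCW_HS and CRL_HS rats (n = 4 each) were 6 weeks old when 14 days of the purified diet with 4% NaCl began. The second table held MCW SS rats only, with no age in the sources used here. PRE_LS rats (n = 4) were on 0.4% NaCl and had the same surgery as both treated groups, with tissue taken before treatment. A scrambled GapmeR (4 mg/kg, given into the kidney) was combined with 7 days of 4% NaCl in the HS_SCR rats (n = 4). The HS_DT group (n = 4) had 2 intra-renal GapmeRs, against Dnmt3a and against Tet3 at 2 mg/kg of each, on the 4% NaCl diet, with the time given as 7 without a unit. The strains on low salt also differed in diet, as did the CRL groups beyond salt, so strain or salt and base diet cannot be told apart there. What is called the salt effect in CRL rats holds that change of base diet and starts from 0.75%, not 0.4% NaCl. This also enters the difference of the salt effects between strains. GapmeRs are antisense oligonucleotides that direct cleavage of an RNA, and no RNA was measured here, so the knockdown was not checked.

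In mammals methyl groups sit mostly on cytosines followed by guanine. Most of the genome is poor in CpGs, which are usually methylated, while CpG islands, many of them at promoters, are usually unmethylated. Dnmt3a adds methyl groups to unmethylated sites and Tet3 oxidises methylcytosine, a step towards its removal. Reduced representation bisulfite sequencing (RRBS) reads short fragments cut by a restriction enzyme, commonly MspI, whose recognition site contains a CpG. The cut ends are filled in with supplied nucleotides, so the outermost cytosine on the strand made there need not carry the animal's own methylation. Where the solitary sites lie on their fragments was not analysed here, because no sequence of the build of the files (rn5) was used. For the same reason positions carry no gene annotation. A level is the share of methylated reads, and in a mixed tissue an intermediate level of all cells and a mixture of cells or alleles cannot be told apart.

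Each second-table library held 174400859 to 257658964 read counts over CpGs and a median of 66 to 98 reads at common sites, against 35040331 to 95102303 counts and 24 to 66 reads in the first table. At solitary sites the median was 44.3 reads per library, below 70.7 in bins with 3 to 9 common sites and 111 in bins with 10 or more, called dense bins below. In 6.91% of solitary sites (7108) every library had the same 2 counts as a position over 1000 bp away or on another chromosome, against 6.86% of all common sites. At 9440 solitary sites (9.18%) the methylated and the unmethylated counts were both even in all 12 libraries, against 12.7% of the sites in bins with 3 to 9 common sites. Those 9440 sites averaged 70.9% methylation and the other solitary sites 43.5%. Whether some fragments were counted by both their reads was not tested.

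The solitary sites had no typical level. Their mean over sites was 46.0% ± 0.351 (SD over 12 rats, from 45.1 to 46.5%), and the median site stood at 44.4%. Sites under 20% made up 27.8%, sites from 20 to 80% made up 49.7% and sites over 80% made up 22.5%. The lowest decile of the scale held 20.4% of the sites and the highest 12.6%, and the others each held between 6.70 and 10.04%. In bins with 3 to 9 common sites the mean was 52.5% and more sites stood over 80% (34.4%), and dense bins had a mean of 10.6% with 86.1% of sites under 20%. Sites alone in their bin averaged 44.8% and the sites of 2-site bins 46.5%, against 52.3% in 3-site bins. No methylated read appeared in any library at 4.11% of solitary sites and at 34.5% of sites in dense bins. By chromosome the mean of solitary sites ran from 43.4% on chromosome 10 to 47.6% on chromosomes 2 and 9.

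**Figure D1:**
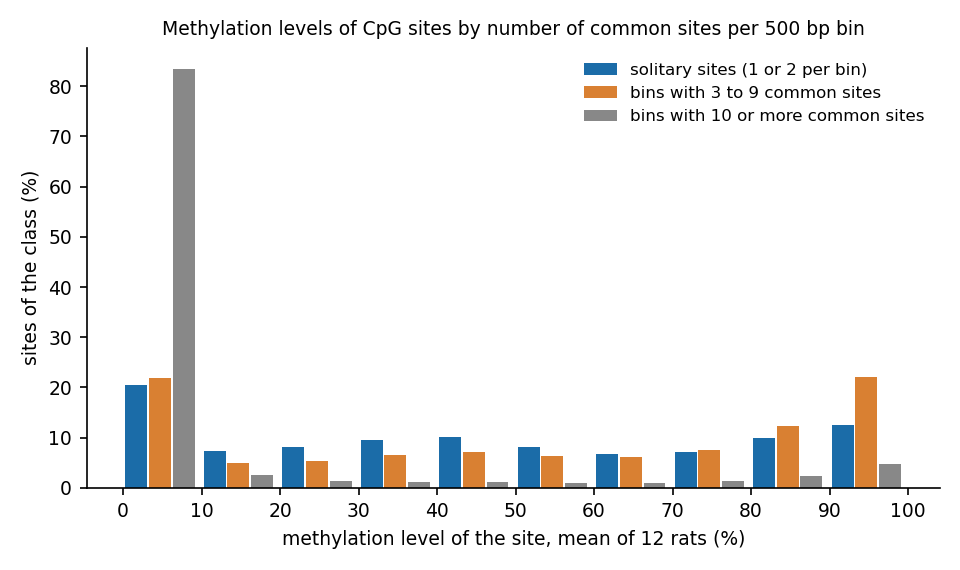
Share of CpG sites (y axis, percent of each class) in steps of 10 percentage points of methylation level (x axis, mean of 12 rats) for solitary sites, bins with 3 to 9 and bins with 10 or more common sites. Solitary sites spread over the whole scale with 49.7% between 20 and 80%, while 86.1% of the sites of dense bins lie under 20%.

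The deposited lists hold further CpGs that missed the read minimum, so most solitary sites are not alone among listed CpGs. Their bins held a median of 4 listed CpGs, and 30.4% of solitary sites had no listed CpG in their bin beyond its common sites. These 31303 sites outnumber the 29516 alone in their bin, so they include sites with a common partner. They averaged 43.5% ± 0.335 (SD over 12 rats), which is not the mean of sites alone among listed CpGs. Solitary sites with 3 to 9 further listed CpGs averaged 48.6%, and those with 10 or more averaged 42.1%.

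Read depth moved with the level. Solitary sites whose shallowest library held 10 to 14 reads averaged 52.3%, those with 20 to 39 reads 41.2%, and those with 80 or more 52.0%. At the edge of the rule, the 7073 solitary sites with exactly 10 reads in the shallowest library averaged 55.4%. The 21437 autosomal sites with 9 reads there averaged 37.1%. The latter came from bins with any number of common sites, so these values differ in kind of bin as well as in depth. The 62978 solitary sites with 20 or more reads in every library averaged 42.8%, while choosing solitary sites anew among common sites of that depth, which takes in sites of other bins, gave 48.5%. The part of depth in the levels below was not tested beyond the values given with 20 or more reads.

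Solitary sites near dense bins had lower levels than those far away, by an amount that depended on what counted as dense. The median solitary site lay 32447 bp from the nearest dense bin, of which there were 28573. The nearest 10% lay within 1924 bp and the farthest 10% beyond 207432 bp, up to 1847751 bp. Within 1000 bp lay 7.61% of solitary sites and beyond 100000 bp 23.0%. The 5809 sites at 1 to 500 bp averaged 23.5% ± 0.163 (SD over 12 rats), with 64.6% of them under 20%. The mean was 33.9% ± 0.348 from there to 1000 bp, 42.3% ± 0.464 at over 1000 to 2000 bp, 47.2% ± 0.383 at over 10000 to 50000 bp and 49.6% ± 0.323 beyond 100000 bp. The rats did not overlap between the first 3 of these distance classes, with 23.2 to 23.8%, 33.3 to 34.5% and 41.1 to 42.9%. With 20 or more reads in every library, sites within 1000 bp averaged 24.5% and sites beyond 1000 bp 44.4%. The mean within 1000 bp was 26.2%, and it was 37.9% with dense bins taken from 5 common sites and 12.6% from 20, against 50.5 and 49.1% beyond 100000 bp.

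The rise with distance was smaller at solitary sites than in bins with 3 to 9 common sites. Those bins went from 20.4% at 1 to 500 bp, below the solitary sites, to 61.1% ± 0.316 beyond 100000 bp, above them. Beyond 100000 bp, 25.9% of solitary sites and 41.7% of the sites of such bins stood over 80%. The part between 20 and 80% was 50.1% and 41.9%. These are descriptions of classes of sites in the same 12 rats, with no test of the difference between classes.

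**Figure D2:**
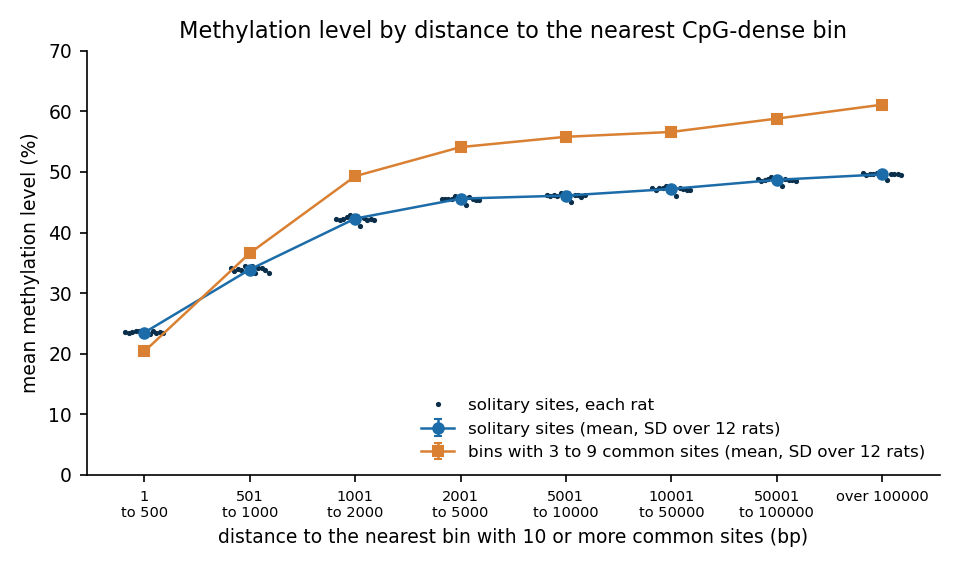
Mean methylation level (y axis, percent) by distance to the nearest bin with 10 or more common sites (x axis, classes in bp), for solitary sites and for bins with 3 to 9 common sites, as mean and SD over 12 rats with each rat's value for solitary sites. The solitary sites rise from 23.5% to 49.6%, and the other bins from 20.4% to 61.1%.

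The sites farthest from dense bins, 2 for each level class, came with every kind of level by this choice. On chromosome 11, the site at 8126552 had no methylated read in any of the 12 rats (10 to 35 reads per rat), 1837449 bp from a dense bin, while its partner 20 bp away averaged 68.3%. The site at 8159164 of the same chromosome averaged 85.2%, from 70 to 100% by rat. On chromosome 3, the site at 93073976 averaged 39.7%, from 26.8 to 48.9% at 35 to 61 reads, 1843525 bp from a dense bin.

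The level of a solitary site also varied with the spacing to the nearest common site, with classes chosen after the values were seen. With that neighbour 2 to 19 bp away the mean was 55.5% ± 0.387 (SD over 12 rats), and at 20 to 39 bp it was 51.5%. At 40 to 99 bp, where 47.1% of the solitary sites fell, it was 40.03% ± 0.344, and 35.3% of those sites stood between 30 and 60%. At 100 to 250 bp it was 38.9%.

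The 6821 solitary sites over 1000 bp from any common site had the highest mean of these classes, 64.2% ± 0.495, with a median of 75.2% and 26.6% of sites at 90% or more. In the second table the high mean was seen only at sites with under 20 reads in the shallowest library. Of the 6821, 61.9% had 10 to 14 reads in the shallowest library (mean 65.8%) and 25.8% had 15 to 19 (70.4%). The 835 sites with 20 or more averaged 43.0% ± 0.351, near the 42.8% of all solitary sites of that depth. Counts were even in all 12 libraries at 34.0% of the isolated sites, and without those the mean was 58.7%. The 1666 isolated sites with the minimum in the first table too averaged 67.5% there and 67.0% in the second.

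**Figure D3:**
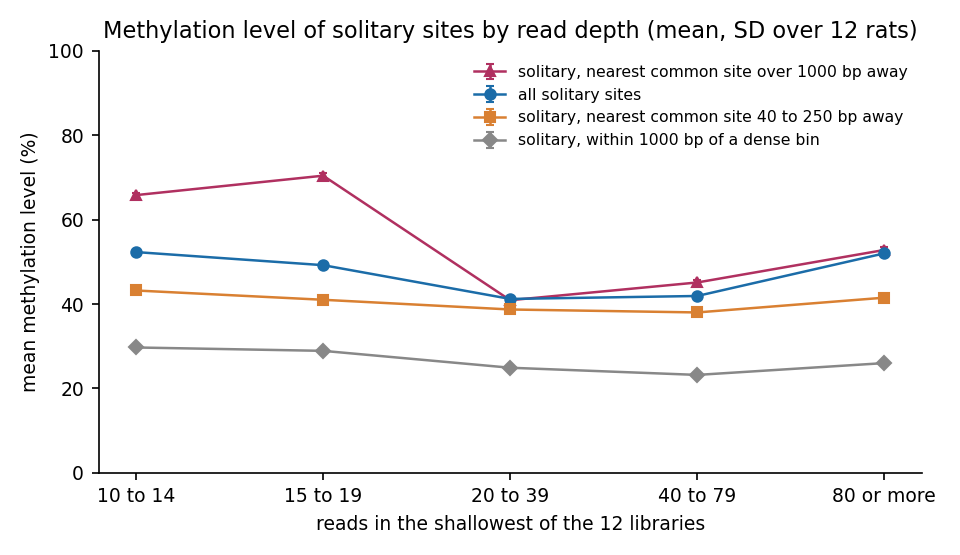
Mean methylation level (y axis, percent, mean and SD over 12 rats) by the reads of the shallowest of the 12 libraries (x axis) for all solitary sites and for those isolated by over 1000 bp, 40 to 250 bp from the nearest common site, or within 1000 bp of a dense bin. The isolated sites stand at 65.8 and 70.4% below 20 reads and at 40.9% with 20 to 39, while the other classes change less.

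The 2 sites of a bin held nearly equal read numbers when they were 40 to 250 bp apart, but not when they were close. The median spacing was 52 bp, and 64.4% of the 36683 pairs were 40 to 250 bp apart. In these 23615 pairs the site with fewer reads had a median of 0.992 times the reads of the other, and 72.8% of pairs had a ratio of 0.9 or more. In the 7290 pairs 2 to 19 bp apart the median ratio was 0.549. The 2 levels summed to 100 percentage points or less in 86.3% of pairs, from 84.8 to 86.2% when each rat was taken alone. Sums of 80 to 100 points made up 46.1% of pairs and sums of 100 to 120 only 3.60%, so that the distribution dropped at 100. A pair with both levels at 50% or less cannot exceed 100, and in the 15540 wide pairs whose higher site was over 50% the share was 79.2%. In the pairs 2 to 19 bp apart, 36.9% summed to 100 or less, and sums of 80 to 100 and of 100 to 120 were 13.1% and 11.0%. In neighbours 40 to 250 bp apart inside bins with 3 to 9 common sites the share was 39.97%. With the higher site over 50% these shares were 20.4 and 23.4%.

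**Figure D4:**
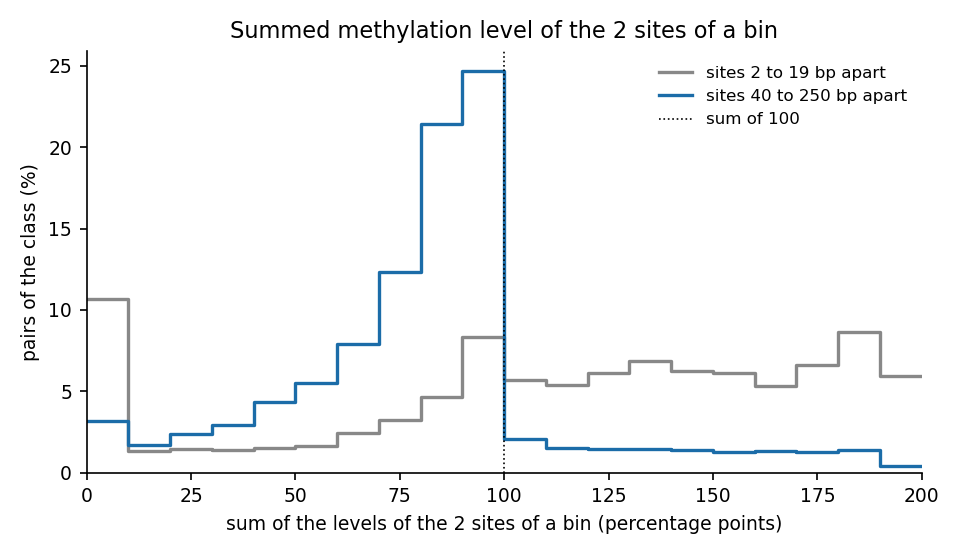
Share of pairs (y axis, percent) by the sum of the levels of the 2 sites of a bin (x axis, percentage points, each level the mean of 12 rats) for pairs 2 to 19 bp and 40 to 250 bp apart. Of the wider pairs 86.3% lie at or below 100, against 36.9% of the close pairs.

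Over all wide pairs a high level at one site went with a low level at the other, but not in those 40 to 59 bp apart. Pearson's r across the 23615 pairs was -0.306, and it was -0.612 at 100 to under 150 bp and -0.695 at 150 to 250 bp, against 0.339 at 2 to 19 bp. These r values describe pairs whose sites share libraries, and at 40 to 250 bp mostly near-equal depth. One site stood under 20% and the other over 80% in 16.4% of the wide pairs, with the high site first in 8.68% and second in 7.76%. Such opposite pairs made up 8.75% at 40 to 59 bp and 42.1% at 150 to 250 bp. Single sites of neighbouring bins, which the grid alone kept from being a pair, gave the same picture at 40 to 250 bp (3541 pairs, r -0.596, sum of 100 or less in 94.7%).

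Pairs were chosen as examples for their read number, after the values were seen. On chromosome 15, the site at 67167357 stood at 84.6% ± 1.55 (SD, n = 12; lowest rat 81.9, median 84.8, highest 86.5%). Its partner at 67167443, 86 bp on, stood at 10.5% ± 1.47 (8.19, 10.5 and 12.5%), with 326 to 482 reads per rat at either site. No rat of the 12 came near the reverse order in this pair, which was chosen as opposite by its mean levels. On chromosome 3, the sites at 65809820 and 65809882, 62 bp apart, stood at 37.6% ± 5.03 and 52.9% ± 4.74. The close pair on chromosome 16, at 13823517 and 13823527, stood at 85.6% ± 2.82 and 68.7% ± 3.45, a sum far over 100.

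The first table, from other rats, held few sums over 100 in wide pairs, but in the pairs it covers the negative relation between the 2 levels was nearly absent. Of 3900 wide pairs with the minimum there, 95.9% summed to 100 or less, against 95.4% for those pairs in the second table. With the higher site over 50% these shares were 91.2% (1835 pairs) and 89.9% (1772 pairs). Pearson's r across the 3900 pairs was -0.0210 in the first and -0.0745 in the second table. Opposite levels were rarer in these pairs, with 3.54% of pairs there and 3.85% in the second table. Among the 150 pairs that were opposite in the second table, the same site was the higher one in every one of the 15 rats of the first table in 138 (92.0%). Over all 23615 wide pairs, single-rat sums of 100 or less averaged 85.8% ± 0.259 in PRE_LS, 85.6% ± 0.530 in HS_SCR and 85.6% ± 0.150 in HS_DT (SD, n = 4 each). Over the 3900 pairs only, they averaged 93.8% ± 0.770 in MCW_LS (n = 3) and 94.0% ± 0.391 in MCW_HS (n = 4). In the CRL rats they averaged 93.5% ± 0.548 on low and 93.5% ± 0.395 on high salt (n = 4 each). On the same 3900 pairs the rats of the second table ranged from 93.6 to 95.3%. Within each table the rats of different groups overlapped.

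At the 21103 solitary sites of both tables the levels of the tables were close. The means were 47.7 and 47.2%, the median absolute difference was 2.69 percentage points, 94.2% of sites fell in the same of the 3 level classes, and r across sites was 0.979. The tables were made from different rats at different depth (median 26.5 and 47.8 reads per library) and hold the same positions.

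The spread between rats is given here against that of independent reads, as a description. Over the 12 rats the chi-square per degree of freedom had a median of 1.63 at the 80786 solitary sites between 5 and 95%, where independent reads alone would give about 1, and it was over 5 at 1.58% of them. At other autosomal common sites, which held more reads (median 74.3 against 45.1 per library), the median was 2.09 and 6.75% were over 5. Both counts were even in 42.7% of the values of solitary sites, reads carry no molecular identifiers, and the part of reads counted more than once in these ratios was not tested. The site at 39268998 of chromosome 6 had the largest ratio, 60.3, with levels from 9.33 to 26.9% at 1776 to 3468 reads, 3 bp from a dense bin. Ranges of 80 points or more between rats occurred at 91 solitary sites (0.0885%) and at 187 of the other common sites (0.0172%), which held more reads. Only 420852 of these 1085906 other sites stood between 5 and 95%, against 80786 of the 102882 solitary sites. Sites near 0 or 100% have less room to range. The site at 241284252 of chromosome 4 ranged from 0 to 100% at 14 to 58 reads, and both extremes lay within HS_DT.

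Unweighted group means of solitary sites differed by under 1 percentage point in every comparison. MCW_HS rats had means of 47.8, 47.8, 48.4 and 48.0% and MCW_LS rats 47.2, 47.5 and 47.5%, so that the groups did not overlap. The difference was 0.583 points (SE 0.174, higher in 12 of 12 pairs of rats). At all other autosomal common sites it was 0.223 points (SE 0.165, 10 of 12 pairs). CRL_HS rats (47.5 to 47.9%) and CRL_LS rats (47.3 to 47.8%) overlapped and differed by 0.251 points (SE 0.139, 14 of 16 pairs), and the salt effects of the strains differed by 0.332 points (SE 0.223). Weighting by reads gave 1.08 points in MCW and 0.896 in CRL rats. These means carry no p-value, because the sites were selected with results of these data known.

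By level class, the salt differences were positive in both strains at sites of intermediate level. At sites of 20 to 80% the difference was 0.843 points (SE 0.231, 12 of 12 pairs) in MCW and 0.508 points (SE 0.282, 14 of 16) in CRL rats. It was 0.109 points (SE 0.243) and -0.487 points (SE 0.535) at sites under 20%, and 0.255 (SE 0.299) and 0.166 points (SE 0.298) at sites over 80%. Differences of these 3 classes from each other were not tested. Sites within 1000 bp of a dense bin gave 0.273 points (SE 0.0786, 12 of 12 pairs) in MCW rats and 0.112 points (SE 0.0971, 11 of 16 pairs) in CRL rats, whose groups overlapped.

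On low salt MCW_LS minus CRL_LS was -0.0932 points (SE 0.142), and 0.00753 points without CRL_LS replicate 4. On high salt MCW_HS minus CRL_HS was 0.239 points (SE 0.171, higher in 12 of 16 pairs of rats). In the second table PRE_LS averaged 46.1% ± 0.129, HS_SCR 46.0% ± 0.643 and HS_DT 46.0% ± 0.123 (SD, n = 4 each). The HS_SCR rats had means of 46.5, 46.1, 46.3 and 45.1%, and the last of these, replicate 4, was the lowest of the 12. HS_SCR minus PRE_LS was -0.0905 points (SE 0.328) and turned to 0.223 points without that rat. HS_DT minus HS_SCR was 0.0279 points (SE 0.327) and turned to -0.285 points without it. HS_DT minus PRE_LS was -0.0626 points (SE 0.0892).

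**Figure D5:**
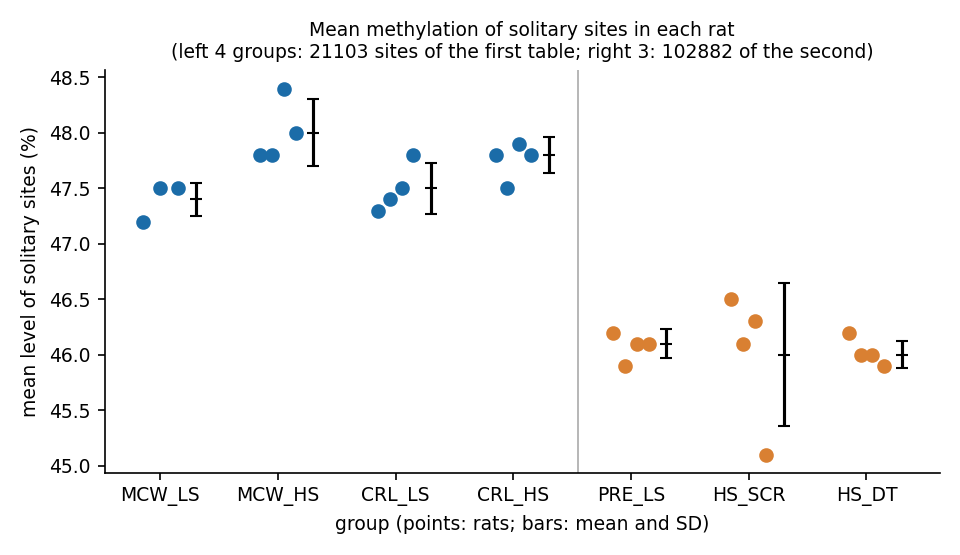
Mean methylation level of solitary sites (y axis, percent, axis not from 0) in each rat of the 7 groups (x axis), with each group's mean and SD. MCW_HS rats lie above MCW_LS rats, and HS_SCR replicate 4 is the lowest rat of the second table at 45.1%.

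Single sites were tested with a quasi-binomial model of methylated and unmethylated counts, on sites with a pooled level of 5 to 95%. P-values were adjusted by Benjamini-Hochberg over all common sites of the table that were tested, and sites with an adjusted p below 0.05 were called. Of 17597 solitary sites tested between MCW_HS and MCW_LS, 2 were called, 1 higher and 1 lower, while 0.0890% of all tested sites were. Between CRL_HS and CRL_LS 0 of 17445 were called (0.0147% of all sites). Between MCW_LS and CRL_LS 0 of 17495 were called (0.0172%), and between MCW_HS and CRL_HS 0 of 17533 (0.0648%). The salt effect differed between strains at 3 of 17578 solitary sites (0.0907% of all sites), each with a lower salt effect in MCW rats. In the second table the quasi-binomial model called 0 of 80720 (HS_SCR vs PRE_LS), 0 of 80849 (HS_DT vs HS_SCR) and 0 of 80501 solitary sites (HS_DT vs PRE_LS), and 0% of all sites. Limma on log2 ratios of the counts called 0 solitary sites in all 8 comparisons, and 6.06e-04% of all sites between MCW_HS and CRL_HS and 0% in the others.

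Unadjusted p-values below 0.05 by the quasi-binomial model were no more frequent at solitary sites than over all sites in any of the comparisons. They made up 4.60% of solitary and 6.33% of all sites for salt in MCW rats, 5.73 and 7.41% for salt in CRL rats, 4.31 and 6.44% between strains on low salt and 4.25 and 6.21% on high salt. For the difference of the salt effects they made up 4.68 and 5.90%. In the second table they made up 4.17 and 5.44% for HS_SCR vs PRE_LS, 4.10 and 4.92% for HS_DT vs HS_SCR and 4.33 and 5.61% for HS_DT vs PRE_LS. In numbers of solitary sites these were 810, 999, 754, 745, 823, 3368, 3315 and 3483 in the same order. By limma on log ratios they were slightly more frequent at solitary sites for HS_DT vs HS_SCR (3751 of 80849, against 23549 of 527815). The same held for HS_DT vs PRE_LS (4063 of 80501, against 25788 of 525381), but for none of the other comparisons. Solitary sites held fewer reads than all tested sites, and the part of depth in these shares was not tested.

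Groups that did not overlap were about as frequent at solitary as at all tested sites. They made up 5.81 and 5.68% for MCW_HS vs MCW_LS, 3.04 and 3.14% for CRL_HS vs CRL_LS, 5.27 and 5.54% for MCW_LS vs CRL_LS and 2.82 and 2.97% for MCW_HS vs CRL_HS. In the second table they made up 2.37 and 2.52% for HS_SCR vs PRE_LS, 2.52 and 2.57% for HS_DT vs HS_SCR and 2.74 and 2.84% for HS_DT vs PRE_LS. Smaller groups fail to overlap more often by number alone. Shares with MCW_LS (n = 3) thus cannot be set against those of comparisons with 4 rats in each group.

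The 2 called sites of the MCW salt comparison had widely spread MCW_LS rats. The site at 43116524 of chromosome 3, alone in its bin and 24 bp from a dense bin, stood at 82.8, 54.3 and 65.8% in MCW_LS and at 85.5, 86.5, 84.2 and 83.8% in MCW_HS. It was 17.4 points higher on high salt (SE 8.31, quasi-binomial adjusted p = 0.0452), with no overlap. The CRL_LS rats ranged from 74.2 to 87.2% and the CRL_HS rats from 74.2 to 88.4%. The site at 68709859 of chromosome 11, 30 bp from a partner at 81.7%, stood at 0.478, 23.0 and 9.18% in MCW_LS and at 1.12, 1.34, 0.389 and 0.431% in MCW_HS. It was 10.1 points lower on high salt (difference -10.1, SE 6.57, quasi-binomial adjusted p = 0.0397), and MCW_LS replicate 1 lay among the MCW_HS rats. Without MCW_LS replicate 2, the rat with 54.3 and 23.0%, or without MCW_HS replicate 2, 3 or 4, 0 solitary sites were called.

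The salt effect in MCW minus that in CRL rats was -15.4 points at the same site of chromosome 11 (quasi-binomial adjusted p = 0.0149), where CRL_LS rats ranged from 0.478 to 4.76% and CRL_HS rats from 2.33 to 17.1%. At 90035798 of chromosome 11 it was -40.9 points (adjusted p = 0.0430 from the same quasi-binomial model), on 10 to 24 reads per rat. MCW_LS rats stood at 20, 37.5 and 27.3% there and MCW_HS rats at 7.69, 0, 0 and 0%, while CRL_LS rats stood at 20, 9.09, 0 and 0% and CRL_HS rats at 14.3, 33.3, 17.4 and 22.2%. At 14854945 of chromosome 17, 445 bp from a dense bin, it was -20.1 points (quasi-binomial adjusted p = 0.0195). All MCW_LS and all CRL_HS rats stood at 100% at that site, MCW_HS rats at 100, 86.9, 90 and 84.8%, and CRL_LS rats at 95, 87.5, 85.5 and 90%. At that site the group mean was lower on high salt in MCW and higher in CRL rats. Without MCW_LS replicate 2, CRL_LS replicate 2 or CRL_HS replicate 3, 0 solitary sites were called for this difference.

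In the comparisons with GapmeRs the sites with the smallest p-values had adjusted p-values of 0.595 or more by the quasi-binomial model. Between HS_DT and HS_SCR the site at 141768458 of chromosome 1, 1386 bp from the nearest common site, stood at 100, 100, 94.7 and 95.5% in HS_DT and at 71.1, 70.6, 71.4 and 60% in HS_SCR. PRE_LS rats stood at 75, 93.3, 96.0 and 72.7%, all above the HS_SCR rats and overlapping the HS_DT rats. The difference was 29.3 points (SE 3.11, quasi-binomial adjusted p = 0.975), and all its counts were even.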

How the data were processed

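The authors deposited 2 tables of methylated (C) and unmethylated (T) read counts per CpG, per the file headers, on build rn5 with reads trimmed by Trim Galore 0.2.5, per the submitters' processing notes. The sources used here do not give the aligner or the caller. All count columns were used. Levels are C/(C + T) in percent. Distances run to the nearest edge of a 500 bp bin with 10 or more common sites. Sites were fitted one by one with a quasi-binomial logistic model (R 4.3.3), with the dispersion moderated by limma 3.58.1, held at 1 or more, and a two-sided F test, adjusted by Benjamini-Hochberg. The code was tested on simulated data. The p-values set a difference of pooled counts against the spread between rats after that moderation, so they also depend on read numbers and on other sites. Libraries with more reads weigh more in them. The SE of a single site is that of unweighted rat levels and can be wide where p is small. Reads carry no molecular identifiers. Named sites were the 2 of smallest p per direction and comparison, the 2 farthest from a dense bin per level class, and the 4 most variable by chi-square and by range. The solitary sites, classes and tests were chosen with earlier results of these data known. Pair statistics, isolation and even counts were added after the values were seen. Gene lists were not used, for want of an rn5 annotation here.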

Additional observations from a re-analysis of the deposited data

Results flagged for a closer look

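Of 57 groups of 4 rats at sites named for their small p, 4 had a rat whose gap to the next was above Dixon's 95% critical value. These were MCW_HS replicate 1 at 90035798 of chromosome 11 (7.69%, the others 0%), PRE_LS replicate 1 at 161891246 of chromosome 2 (92.9%, the others 100%), HS_SCR replicate 4 at 141768458 of chromosome 1 (60%, the others 70.6 to 71.4%) and HS_DT replicate 1 at 82219482 of chromosome 16 (72.7%, the others 50 to 52.4%). Chance gives about 1 in 20 for normally distributed values, which bounded shares of reads are not. Where the other rats all stood at 0 or all at 100%, any other level was flagged. None of the 6 groups of 4 was flagged in the mean over all solitary sites. The salt effect differed between strains, by the test of that difference, at 68709859 (-15.4 points) and 90035798 (-40.9 points) of chromosome 11 and at 14854945 of chromosome 17 (-20.1 points).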

How the results depend on the processing

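Calls depended on single settings and rats. For salt in MCW rats 2 calls became 0 with no filter on the pooled level, limma on log ratios, the replicate block, a block by animal number range or without the libraries whose count columns are marked RP (MCW_LS replicate 2 and CRL_LS replicate 3). One title puts the mark on MCW_LS replicate 1 instead, without which there were 6 calls for salt in MCW rats and 5 each for the difference of salt effects and between strains on low salt. For the difference of salt effects 3 became 1 with 20 or more reads and 0 with no filter, limma or without RP libraries, and 2 with the replicate block. Between MCW_LS and CRL_LS 0 became 1 with 20 or more reads or without RP libraries. Leaving out each rat gave 0 to 6 calls for salt in MCW rats (0 without MCW_LS replicate 2 or MCW_HS replicate 2, 3 or 4), 0 to 7 in CRL rats (7 without CRL_HS replicate 4), 0 to 47 between strains on low salt (47 without MCW_LS replicate 3), 0 to 1 on high salt, 0 to 5 for the difference of salt effects, and 0 in the second table. The cause was not tested. Same-numbered rats correlated only weakly in their deviations, at -0.134 to 0.0890. For HS_DT vs HS_SCR the values were 0.00282 to 0.0890, and 2 of 4 rats matched their own number best. With 3 or 4 shared numbers per comparison these values cannot exclude pairing by number. The block changed no other count of calls.

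Of 40 mean differences under other settings, 37 moved by under 1 SD between rats. Weighting by reads gave 1.08 (MCW salt), 0.896 (CRL salt) and 0.106 points (HS_DT vs PRE_LS). Left-out rats gave 0.439 to 0.661, 0.171 to 0.351, -0.173 to 0.00753, 0.0948 to 0.317, 0.188 to 0.412, -0.253 to 0.223, -0.285 to 0.191 and -0.124 to -0.0191 points, in the order of the tests above.

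With solitary sites redefined on common sites of 20 or more reads the mean level was 48.5%, with 25.9% of sites under 20% and 25.5% over 80%, and the median distance was 37637 bp. Bins of 1000 bp gave 26.7% under 20%, 51.3% at 20 to 80% and 31004 bp. Dense bins from 5 or 20 sites gave 8976 or 73413 bp, and means of 37.9 or 12.6% within 1000 bp in place of 26.2%. Alternatives added after the values were seen: without sites of even counts the mean was 43.5%. Wide pairs summing to 100 or less were 90.4% with 20 or more reads, 89.4% without even counts and 89.9% at 60 to 200 bp. They were 95.9% in the first table, on the 3900 pairs it covers, which gave 95.4% in the second. Isolated sites averaged 63.3% beyond 500 bp, 64.9% beyond 5000 bp, 43.0% with 20 or more reads and 58.7% without even counts. Depth limits the isolated sites most, since 835 of 6821 held 20 or more reads.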
